A study of Mus musculus with 10 samples.

Results

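Wnt ligands, their receptors and the proteins that modulate them were examined in primary differentiated adipocytes of control and Ad-Fam20c–KO mice. The members were the genes whose symbol begins with Wnt, Fzd or Dkk and a digit, or with Tcf7. Added to these were Sfrp1, Sfrp2, Sfrp4, Lrp5, Lrp6, Axin1, Axin2, Lgr4 to Lgr6, Rspo1 to Rspo4, Porcn, Lef1, Ctnnb1, Rnf43, Znrf3, Nkd1, Nkd2 and Wif1. This choice by symbol gave 59 of the 56748 genes in the count table. They were 19 Wnt ligands, the ligand acyltransferase gene Porcn, 10 frizzled receptors, 2 co-receptors, 8 secreted inhibitors, 9 genes of the R-spondin axis, 5 cytoplasmic regulators and 4 nuclear factors. The remaining gene, Fzd10os, is a noncoding transcript next to Fzd10 that the letters of its symbol brought in. Wnt proteins are secreted lipid-modified ligands that bind frizzled receptors at the cell surface. In the canonical branch, a frizzled and the co-receptor LRP5 or LRP6 stop the degradation of β-catenin, which then works with TCF/LEF factors in the nucleus, whereas noncanonical ligands such as WNT5A act without β-catenin. In fat, canonical Wnt signaling is known for holding precursor cells back from becoming adipocytes.

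The 10 RNA-seq libraries were 5 of genotype Fam20c-flox, called control, and 5 of genotype Fam20c-flox/Adipoq-Cre, called KO. They were made to learn how the transcriptome changes when fat cells lose this secreted kinase. Both groups carried the floxed allele, from a line crossed to C57BL/6J for 5 generations or more. Stromal vascular cells came from the inguinal fat of male mice 6 to 8 weeks old. They were differentiated for 6 to 8 days, first with IBMX, dexamethasone, insulin and rosiglitazone, next with insulin and rosiglitazone, and last with insulin, in the same way in both groups. The Cre is driven by the adiponectin promoter, which is active in adipocytes, and recombination was not measured in these libraries. No source used here says that the libraries came from separate animals, so the P values measure the spread between these samples, which may in part be technical. Total counts ranged from 18949106 to 26237825 in control libraries and from 19883101 to 23291792 in KO libraries. Levels are in CPM (counts scaled for library size), and means are given ± SD (n = 5 libraries per group). Values of single libraries are listed in the order 1 to 5 within each group.

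Fam20c had control values of 8.86, 10.3, 11.9, 9.09 and 11.2 CPM and KO values of 6.65, 7.29, 7.11, 7.70 and 7.74 CPM, all KO libraries lying below all control libraries. Its log2 fold change was -0.49 (SE 0.0929, adjusted P = 0.0137, edgeR with Benjamini-Hochberg adjustment). Control library 4 and KO library 1 stood apart from the rest on the first principal component, which held 23.5% of the variance, with scores of 21.7 and 24.2 against -14.8 to 8.59 in the other libraries. All adipocyte markers but Lep, which had 11 to 34 counts, had at least 3319 counts in each library. The sum of these 12 genes was 35413 ± 451 CPM in control and 37595 ± 740.3 CPM in KO adipocytes, and all KO libraries lay above all control libraries (P = 0.00794 by a 2-sided exact permutation test, the smallest value that 5 against 5 libraries allow; 0.0437 after Benjamini-Hochberg adjustment over 11 marker lists). Most of this difference came from Fabp4, at 20805 ± 357 CPM in control and 22552 ± 945 CPM in KO adipocytes. None of the 12 genes passed in edgeR, with 4 at an unadjusted P under 0.05, while DESeq2 called 2 and limma voom 1, and for each of the 12 the groups overlapped. Over all genes tested, 11.9% had an unadjusted P under 0.05 in edgeR, while DESeq2 called 3.39% and limma voom 3.21%. Markers of endothelial cells differed far more than those of adipocytes. The sum of 20 endothelial genes, led by Cdh5, had control values of 223, 236, 263, 269 and 263 CPM and KO values of 144, 117, 120.2, 103 and 112 CPM, without overlap. None of the 20 genes was at 0, and 17 of them fell in KO by edgeR, beside 1.86% of all genes tested. The log2 ratio of the mean sums was -1.07 (exact permutation test, P = 0.00794, adjusted 0.0437). The marker lists were chosen with earlier results of these data known. The P values of their sums are therefore not independent support. In these bulk samples, fewer cells of a type and less RNA per cell cannot be told apart, and the part of the endothelial difference in the values of the Wnt genes was not tested.

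Of the 59 Wnt genes, 31 had enough counts to be tested among the 14270 genes of the comparison. In the quasi-likelihood test of edgeR, none of the 31 passed a Benjamini-Hochberg adjusted P of 0.05, with 0 lower and 0 higher in KO. Over all genes tested, 265 (1.86%) were lower, 44 (0.308%) were higher and 309 (2.17%) passed in either direction. At an unadjusted P under 0.05, 7 of the 31 Wnt genes passed. They were Lgr6, Fzd2, Fzd1, Nkd1, Wnt5b and Sfrp2, lower in KO, and Porcn, higher in KO. This is 22.6% of the genes tested, beside 11.9% of all genes (7.46% lower and 4.43% higher). At an adjusted P under 0.05, DESeq2 called 1 Wnt gene, Lgr6, beside 484 of all genes (3.39%). limma voom with quality weights also called 1, again Lgr6, beside 458 of all genes (3.21%). At an unadjusted P under 0.05 there were 6 Wnt genes with DESeq2 and 5 with limma voom. The share of all genes at an unadjusted P is not given here for these tools. Without control library 4, edgeR called 2 Wnt genes, Lgr6 and Fzd1, both lower in KO. Among all genes, the number that passed as higher was 119 without control library 4. It was 23, 24 and 19 without control library 1, 3 and 5, and 23, 29, 24 and 23 without KO library 2, 3, 4 and 5. The number that passed as lower was 164 without KO library 2 and 171 without KO library 5. With any 1 library left out it ran from 164 to 323, against 265 with all libraries.

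Libraries of the groups did not overlap for 2 Wnt genes. KO lay below control throughout for Fzd2 and above it for Porcn, beside 2.66% of all genes with KO below, 1.31% with KO above and 3.97% in either direction. Of the 31 log2 fold changes, 21 were negative and 10 positive, with a median of -0.04 and a range of -0.75 to 0.24. The median over all genes tested was -0.000847. The 95% interval of a Wnt gene reached 0.21 to either side in the median (0.18 over all genes).

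**Figure D1:**
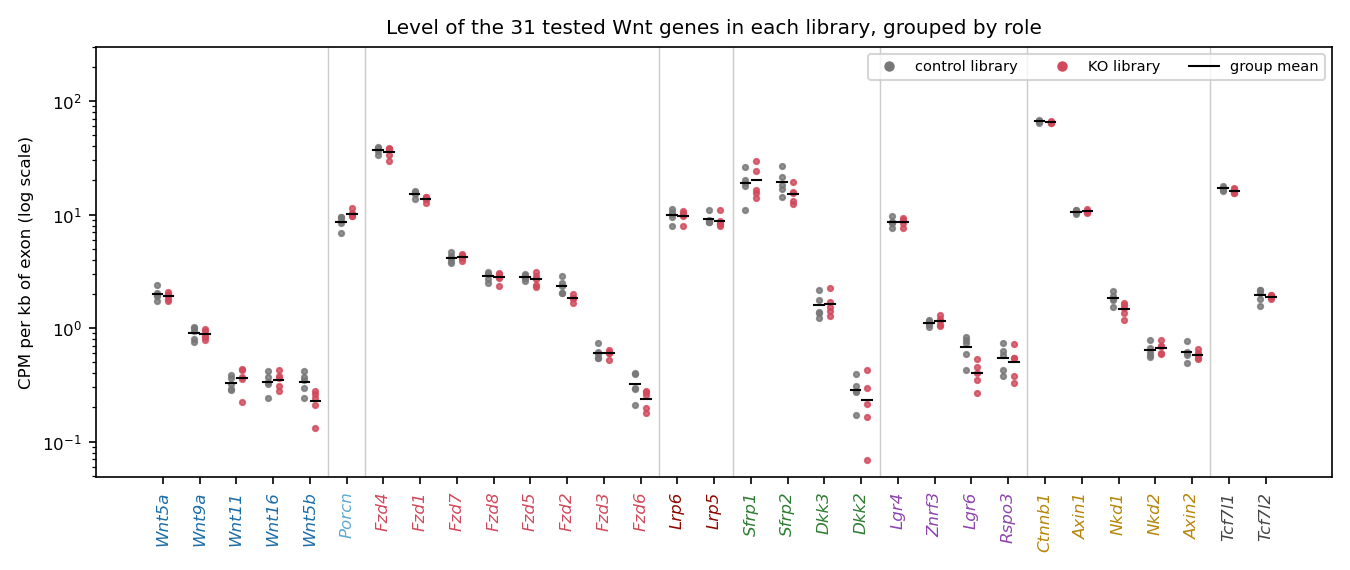
Level of each of the 31 tested Wnt genes in CPM per kb of exon (vertical log axis), with 5 control libraries in gray, 5 KO libraries in red and a line at each group mean, grouped by role. Dkk2, Fzd6, Wnt5b, Wnt11 and Wnt16 lie at the bottom and Ctnnb1 at the top, and the groups overlap for all but Fzd2 and Porcn.

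Wnt ligands were few and low. Of the 19 ligand genes, 5 were tested and 5 (Wnt1, Wnt3, Wnt3a, Wnt7a and Wnt10a) had no count in any of the 10 libraries. Wnt5a, a ligand of mainly noncanonical signaling, was the highest of the tested ligands per length, at 2.00 ± 0.250 CPM per kb of exon in control and 1.90 ± 0.136 CPM per kb in KO adipocytes. It made up 46.5% to 54.1% of the summed ligand level per kb of a library. Wnt5a had control values of 14.9, 15.2, 13.5, 18.8 and 16.0 CPM and KO values of 14.9, 16.1, 13.7, 14.0 and 15.7 CPM. Control library 4 was the highest of the 10, the groups overlapped, and the log2 fold change of -0.08 (95% interval -0.26 to 0.11) did not exceed the spread between libraries. Without control library 4 it was -0.00104, without control library 3 -0.122 and without KO library 3 -0.0431. Wnt5b, its close relative, had control values of 0.787, 0.637, 0.988, 1.11 and 0.930 CPM and KO values of 0.347, 0.703, 0.742, 0.641 and 0.560 CPM, on 7 to 23 counts per library. KO library 1 was the lowest, and KO libraries 2, 3 and 4 lay within the range of the control libraries. Wnt5b had a log2 fold change of -0.55 (95% interval -1.05 to -0.04, adjusted P = 0.363, edgeR with Benjamini-Hochberg adjustment). Without control library 4 and KO library 1, the log2 fold change of Wnt5b was -0.317. Wnt9a, Wnt11 and Wnt16 had mean levels of 1.36 to 3.02 CPM in control and log2 fold changes of -0.04, 0.13 and 0.06, within the spread between libraries.

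Porcn encodes the acyltransferase of the endoplasmic reticulum that attaches the lipid Wnt proteins need for secretion and for binding frizzled receptors. Porcn (ENSMUSG00000031169.14; chromosome X, 8193848 to 8206525, minus strand) had control values of 28.6, 28.6, 25.4, 27.0 and 20.7 CPM and KO values of 30.7, 30.1, 34.3, 29.0 and 29.3 CPM. Control library 5 was the lowest of all, and no KO library reached down to the controls, KO library 4 at 29.0 CPM being close to control libraries 1 and 2 at 28.6 CPM. The mean was 26.0 ± 3.28 CPM in control and 30.7 ± 2.11 CPM in KO adipocytes. Porcn had a log2 fold change of 0.24 (SE 0.0849, 95% interval 0.05 to 0.42) and did not pass (adjusted P = 0.248, edgeR with Benjamini-Hochberg adjustment). Per kb of exon, Porcn stood at 8.68 ± 1.09 CPM in control, above each of the tested ligands.

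Frizzled genes encode the seven-pass receptors that bind Wnt proteins. Fzd4, which also serves as the receptor of norrin, was the most abundant, at 37.3 ± 2.52 CPM per kb of exon in control and 35.5 ± 3.83 CPM per kb in KO adipocytes, or 54.9% to 59.6% of the summed level of the 8 tested frizzled genes. Fzd1 came next at 15.3 ± 0.891 and 13.7 ± 0.653 CPM per kb, and Fzd7, Fzd8, Fzd5 and Fzd2 lay between 1.84 and 4.25 CPM per kb in both groups. Fzd3 and Fzd6 were the lowest of the 8, and Fzd9 and Fzd10 had too few counts to be tested.

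Fzd4 had control values of 261, 265, 246, 224 and 259.7 CPM and KO values of 199, 254, 227, 259 and 255 CPM. The lowest values were those of KO library 1 and control library 4, the libraries that stood apart on the first principal component, and the groups overlapped. Fzd4 had a log2 fold change of -0.07 (95% interval -0.23 to 0.09, adjusted P = 0.802, edgeR with Benjamini-Hochberg adjustment), which was -0.0101 without KO library 1 and -0.108 without control library 4. Fzd1 (ENSMUSG00000044674.7; chromosome 5, 4753839 to 4758035, minus strand), a receptor for canonical ligands, had control values of 64.2, 64.9, 67.7, 57.9 and 65.9 CPM and KO values of 53.5, 60.3, 59.9, 57.4 and 57.3 CPM. Control library 4 lay within the range of the KO libraries, and the other control libraries lay above them. With all libraries, Fzd1 had a log2 fold change of -0.15 (SE 0.0505, adjusted P = 0.192, edgeR with Benjamini-Hochberg adjustment). Without control library 4 it was -0.19 and passed with an adjusted P of 0.0431 in edgeR with Benjamini-Hochberg adjustment, the lowest value for Fzd1 among the alternatives, which ran up to 0.419.

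Fzd2 (ENSMUSG00000050288.7; chromosome 11, 102604396 to 102608058, plus strand), a receptor for WNT5A among other ligands, had control values of 9.12, 7.46, 10.5, 7.40 and 8.67 CPM and KO values of 6.70, 6.10, 6.76, 7.33 and 6.72 CPM. No KO library reached up to the controls, KO library 4 at 7.33 CPM being close to control library 4 at 7.40 CPM. The mean was 8.64 ± 1.30 CPM in control and 6.72 ± 0.434 CPM in KO adipocytes, with a log2 fold change of -0.36 (SE 0.104, 95% interval -0.59 to -0.13). It did not pass (adjusted P = 0.124, edgeR with Benjamini-Hochberg adjustment). Of the other tested frizzled genes, Fzd6 had a log2 fold change of -0.41 with an interval that included 0 (-0.86 to 0.05), on 17 to 45 counts per library. Without control library 4 and KO library 1, the log2 fold change of Fzd6 was -0.248. Fzd3, Fzd5, Fzd7 and Fzd8 had log2 fold changes between -0.06 and 0.03. Fzd5 and Fzd6 overlap exons of other genes on the opposite strand, and the strand setting of the counting is not given in the sources used here, so their counts can include fragments of those genes. The same holds for Wnt5a, Wnt11, Rspo3, Axin2 and Tcf7l1.

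**Figure D2:**
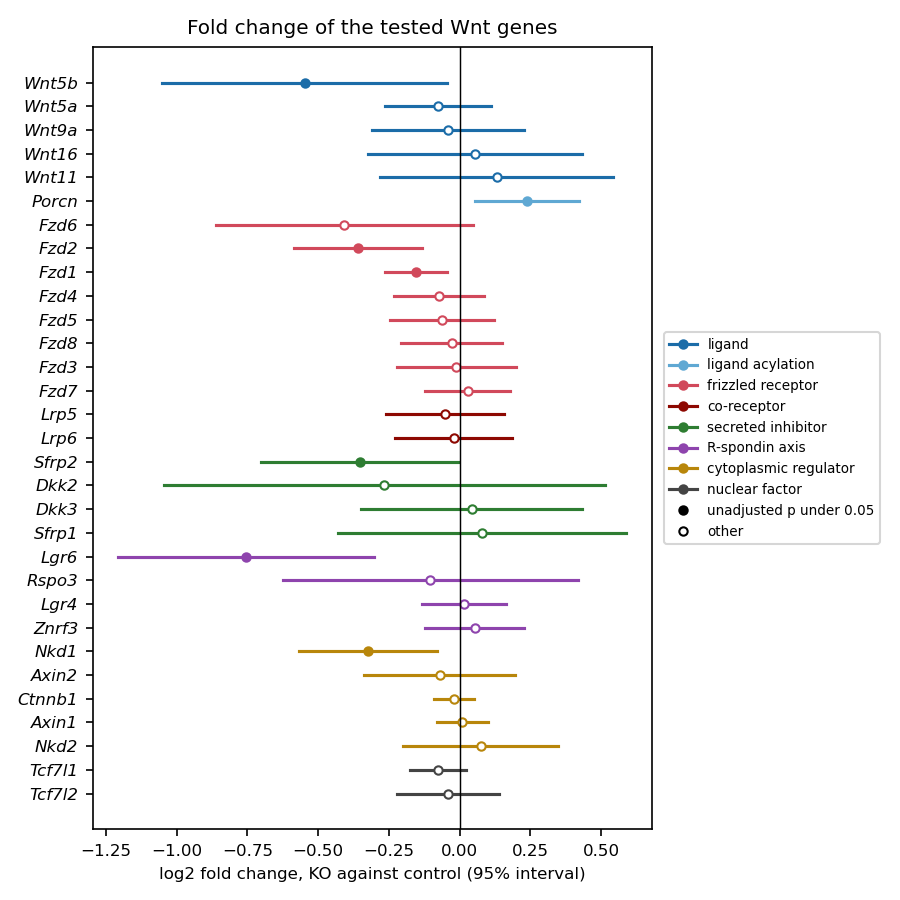
Log2 fold change of each tested Wnt gene, KO against control (horizontal axis), with its 95% interval from edgeR, ordered and colored by role. Filled points have an unadjusted P under 0.05; the intervals of Lgr6, Fzd2, Fzd1, Nkd1, Wnt5b and Sfrp2 lie below 0 and that of Porcn lies above 0.

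LRP5 and LRP6 are the single-pass co-receptors that canonical ligands bridge to a frizzled. Their levels per length were close to each other, at 9.85 ± 1.29 CPM per kb of exon for Lrp6 and 9.17 ± 1.07 CPM per kb for Lrp5 in control adipocytes. Lrp6 had control values of 146, 129.8, 108, 154 and 137 CPM and KO values of 132, 146, 109, 141 and 136 CPM. Library 3 was the lowest in both groups, and the log2 fold change was -0.02 (95% interval -0.23 to 0.19). Lrp5 had control values of 84.3, 83.4, 83.9, 108 and 87.5 CPM and KO values of 108, 80.2, 77.6, 79.8 and 86.1 CPM. Control library 4 and KO library 1, which stood apart on the first principal component, were the highest in their groups, and the other 8 libraries lay between 77.6 and 87.5 CPM. Lrp5 had a log2 fold change of -0.05 (95% interval -0.26 to 0.16), which turned to 0.03 without control library 4.

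Secreted inhibitors bind Wnt proteins directly, as the SFRP proteins and WIF1 do, or block the co-receptors, as DKK1 does. Sfrp1 and Sfrp2 were the most abundant of the 4 tested per kb of exon, and Sfrp1 made up 40.9% to 62.9% of the summed level of the 4 in a library. Sfrp1 had control values of 83.3, 48.2, 88.7, 116 and 78.0 CPM and KO values of 131, 72.2, 60.7, 106 and 67.4 CPM. It varied widely within both groups, with coefficients of variation of 29.2% in control and 34.2% in KO adipocytes, and KO library 1 and control library 4 were the highest of their groups. Its log2 fold change was 0.08 (95% interval -0.43 to 0.59) and turned to -0.06 without control library 2 and to -0.11 without KO library 1. Sfrp2 (ENSMUSG00000027996.14; chromosome 3, 83766321 to 83774316, plus strand) had control values of 45.8, 30.5, 57.8, 36.5 and 38.9 CPM and KO values of 33.7, 26.6, 33.3, 41.8 and 28.3 CPM. Control library 3 was the highest of the 10 and the groups overlapped, with control library 2 below 3 of the 5 KO libraries. Sfrp2 had a log2 fold change of -0.35 (95% interval -0.70 to -0.01, adjusted P = 0.409, edgeR with Benjamini-Hochberg adjustment), and its exons overlap Gm26771 on the opposite strand. Without control library 3 the log2 fold change of Sfrp2 was -0.205. Dkk3, a divergent member of its family, was at 5.32 ± 1.29 CPM in control and 5.49 ± 1.25 CPM in KO adipocytes. Dkk2 was at 1.06 ± 0.293 CPM in control and 0.869 ± 0.505 CPM in KO adipocytes, on 5 to 32 counts per library. Dkk1 and Dkk4 had no count in any library, and Wif1 had at most 1.

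R-spondins are secreted proteins that strengthen Wnt signaling by binding the receptors LGR4 to LGR6 and keeping the ubiquitin ligases ZNRF3 and RNF43 from removing frizzled proteins. Lgr4 made up 76.2% to 81.9% of the summed level per kb of the 4 tested genes. Lgr4 had control values of 50.2, 50.2, 45.1, 57.2 and 49.2 CPM and KO values of 49.4, 55.3, 44.8, 53.0 and 52.4 CPM. The groups overlapped almost fully, and the log2 fold change was 0.02 (95% interval -0.13 to 0.17). Znrf3 was at 8.74 ± 0.455 CPM in control and 9.09 ± 0.893 CPM in KO adipocytes and Rnf43 had 0 or 1 count in each library. Of the R-spondins, Rspo3 was tested, at 1.69 ± 0.455 CPM in control and 1.56 ± 0.480 CPM in KO adipocytes. Rspo2 was just too low, with 9 to 18 counts in control libraries and 6 to 10 in KO libraries.

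Lgr6 (ENSMUSG00000042793.14; chromosome 1, 134983301 to 135105276, minus strand), a receptor of R-spondins, had the lowest P value of the 31 Wnt genes. It had control values of 5.77, 4.09, 5.03, 2.90 and 5.41 CPM and KO values of 2.73, 3.69, 1.83, 2.38 and 3.10 CPM, on 42 to 128 counts per library. Control library 4 was the lowest control library and lay below KO libraries 2 and 5, while the other control libraries lay above each KO library. The mean was 4.64 ± 1.16 CPM in control and 2.75 ± 0.704 CPM in KO adipocytes, and the log2 fold change was -0.75 (SE 0.208, 95% interval -1.21 to -0.30). Lgr6 did not pass (adjusted P = 0.102, edgeR with Benjamini-Hochberg adjustment). Its adjusted P was 0.0218 with DESeq2 and 0.0494 with limma voom, both with Benjamini-Hochberg adjustment. In edgeR with the same adjustment it was 0.0411 without a filter on low counts, 0.0173 without control library 4 (log2 fold change -0.88) and 0.0279 without control library 4 and KO library 1. Over the alternatives it ran from 0.0173 to 0.236.

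**Figure D3:**
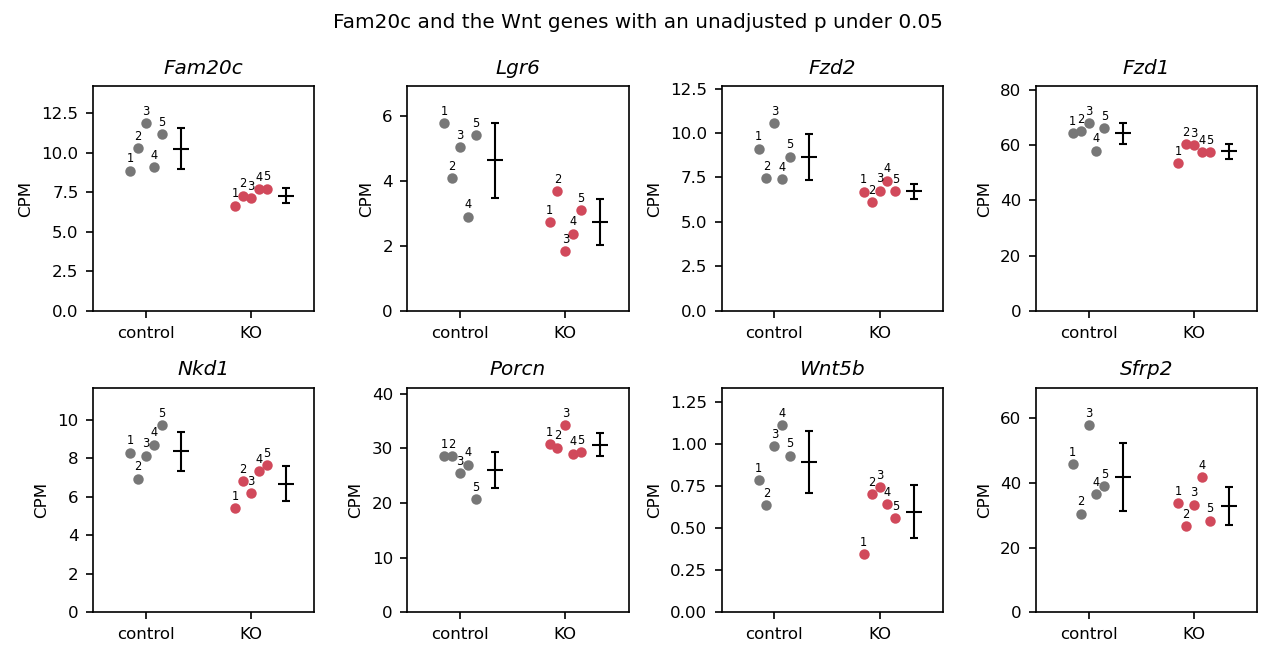
CPM in each of the 10 libraries, numbered 1 to 5 within control (gray) and KO (red), with mean ± SD beside the points, for Fam20c and the 7 Wnt genes with an unadjusted P under 0.05. KO libraries lie wholly below control for Fam20c and Fzd2 and wholly above for Porcn, and the groups overlap in the other panels.

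Among the cytoplasmic regulators, Ctnnb1, which encodes β-catenin, was the most abundant of the 31 Wnt genes per length. It stood at 66.4 ± 1.26 CPM per kb of exon in control and 65.5 ± 1.08 CPM per kb in KO adipocytes. Ctnnb1 had control values of 344, 346, 335, 348 and 352 CPM and KO values of 346, 343, 334, 343 and 335 CPM. The 10 values were close, with coefficients of variation of 1.90% in control and 1.65% in KO adipocytes, and the log2 fold change was -0.02 with a narrow 95% interval (-0.09 to 0.05). Exons of Ctnnb1 overlap those of Ulk4 on the opposite strand. Axin1, a scaffold of the complex that degrades β-catenin, was at 40.6 ± 1.35 CPM in control and 40.9 ± 1.32 CPM in KO adipocytes, with a log2 fold change of 0.01 (95% interval -0.08 to 0.10). Axin2, which codes for a second scaffold and is itself a target of β-catenin in many tissues, was at 3.37 ± 0.535 CPM in control and 3.21 ± 0.262 CPM in KO adipocytes, with a log2 fold change of -0.07 (95% interval -0.34 to 0.20) that turned to 0.02 without control library 4. Nkd1 (ENSMUSG00000031661.13; chromosome 8, 88521354 to 88594884, plus strand), a dishevelled-binding inhibitor of the pathway, had control values of 8.29, 6.94, 8.14, 8.70 and 9.72 CPM and KO values of 5.41, 6.81, 6.20, 7.33 and 7.63 CPM. KO library 1 was the lowest, and KO libraries 4 and 5 lay above control library 2. Nkd1 had a log2 fold change of -0.32 (SE 0.112, adjusted P = 0.230, edgeR with Benjamini-Hochberg adjustment), and that of its relative Nkd2 was 0.07.

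Of the nuclear factors, which bind DNA as partners of β-catenin, Tcf7l1 and Tcf7l2 were tested. Tcf7l1, known mainly as a repressor, was the higher per length and made up 88.8% to 91.3% of the summed level per kb of the 2 genes in a library. Tcf7l1 had control values of 70.3, 67.8, 65.1, 67.3 and 63.4 CPM and KO values of 67.7, 61.8, 60.4, 61.4 and 65.5 CPM. The groups overlapped, and the log2 fold change was -0.08 (95% interval -0.17 to 0.02). Tcf7l2 was at 17.1 ± 2.21 CPM in control and 16.6 ± 0.622 CPM in KO adipocytes, a log2 fold change of -0.04. Lef1 had no count in any library and Tcf7 had 0 to 8.

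In all, 28 of the 59 Wnt genes were too low to be tested. Of these, 8 had no count in any of the 10 libraries (Wnt1, Wnt3, Wnt3a, Wnt7a, Wnt10a, Lef1, Dkk1 and Dkk4), which at 3 counts over all libraries allows a level of up to 0.0137 CPM. This limit covers counting error only. The other 20 had at most 18 counts in a library. They were Wnt2, Wnt2b, Wnt4, Wnt6, Wnt7b, Wnt8a, Wnt8b, Wnt9b, Wnt10b, Fzd9, Fzd10, Fzd10os, Sfrp4, Wif1, Lgr5, Rspo1, Rspo2, Rspo4, Rnf43 and Tcf7. In the edgeR fit without a filter on low counts, which held all of them, none of the 20 passed. In that fit, 2 of the 20 had an unadjusted P under 0.05, Rspo2 and Lgr5, with log2 fold changes of -0.80 and -1.12. With the filter, 11.9% of all genes tested had an unadjusted P under 0.05, and the share without it is not given here. Some Wnt genes lie side by side on a chromosome. On chromosome 11, Wnt3a (59248033 to 59290752) and Wnt9a (59306928 to 59333552) are 16175 bases apart, and Wnt3a had no count where Wnt9a had 56 to 91 per library. In the pairs Wnt6 and Wnt10a, Wnt9b and Wnt3, and Wnt10b and Wnt1, the former had 0 to 4 counts per library and the latter none.

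The sequence around the start of each gene was searched for CTTTGAT on both strands, letters that match the core bound by TCF/LEF factors. RefSeq windows from 250 bases before to 50 after the start (GRCm38.p6) were at hand for 38 of the 59 genes. The motif lay in 2 of the 48 windows of these genes (4.17%), beside 3.73% of all 32851 windows. Both belong to ligand genes, and their stretches are shown because they are the Wnt genes in which the letters were found, with the motif in capitals. For Wnt5b the stretch lies at chr6:119449434-119449474 on the minus strand, within an intron of a longer Wnt5b transcript in GENCODE M21. Its motif begins 71 bases before the RefSeq start. For Wnt11 the stretch lies at chr7:98835044-98835084 on the plus strand, between genes. Its motif, read on the opposite strand, begins 51 bases before the start.
Wnt5b: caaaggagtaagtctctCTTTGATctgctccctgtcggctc
Wnt11: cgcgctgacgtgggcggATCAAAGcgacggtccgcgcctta
Wnt5b had a log2 fold change of -0.55 and Wnt11 of 0.13, neither past the adjusted limit.

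Other genes of the pathway were taken from 6 lists with 92 genes in all, of which 74 were tested. Of the 74, 4 fell and 1 rose in KO adipocytes by edgeR with Benjamini-Hochberg adjustment, beside 1.86% of all genes lower and 0.308% higher. An unadjusted P under 0.05 was found for 9 of the 74 (12.2%), close to the 11.9% of all genes. It was found for 14 without control library 2 and for 18 without control library 4. Over all genes the number also moved, from 1697 with all libraries to between 1393 and 2301 with 1 library left out. The median log2 fold change of the 74 was -0.03. The number lower was 2 without control library 3 or 5 or without KO library 2, 4 or 5.

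Of the other secreted or membrane modulators, 6 of 13 were tested and 1 rose. Tpbg (chromosome 9, 85842380 to 85847040, plus strand), which codes for a membrane glycoprotein that inhibits canonical signaling by acting on LRP6, had control values of 9.33, 10.1, 12.4, 9.19 and 12.2 CPM and KO values of 16.9, 15.1, 14.6, 19.4 and 15.2 CPM. KO exceeded control in all libraries, with a log2 fold change of 0.61 (SE 0.107, adjusted P = 0.00925, edgeR with Benjamini-Hochberg adjustment). Its exons overlap 9330154J02Rik on the opposite strand. Of the other receptors and co-receptors, 10 of 11 were tested and 1 fell. Reck (chromosome 4, 43875530 to 43944806, plus strand), a membrane-anchored protein that pairs with ADGRA2 to pass on WNT7A and WNT7B signals in brain endothelium, had control values of 27.5, 26.6, 28.6, 25.3 and 27.7 CPM and KO values of 22.4, 20.7, 19.7, 23.2 and 20.7 CPM. KO libraries were wholly below control libraries, with a log2 fold change of -0.35 (SE 0.0578, adjusted P = 0.00624, edgeR with Benjamini-Hochberg adjustment). Adgra2 itself had a log2 fold change of -0.29 that did not pass (adjusted P = 0.119, edgeR with Benjamini-Hochberg adjustment), and the ligand genes Wnt7a and Wnt7b had no count and at most 2 counts per library.

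Of the canonical target genes, 14 of 23 were tested and 1 fell. Ccn2 (chromosome 10, 24595442 to 24598683, plus strand), which codes for a matrix-associated growth factor also known as CTGF and responds to several pathways besides Wnt, had control values of 16.7, 14.6, 23.7, 24.6 and 21.6 CPM and KO values of 14.9, 12.2, 11.4, 10.9 and 12.2 CPM. Control library 2 was the lowest control library, just below KO library 1, and the other control libraries lay above each KO library. Ccn2 had a log2 fold change of -0.72 (SE 0.141, adjusted P = 0.0177, edgeR with Benjamini-Hochberg adjustment). Without control library 3 or 5 or KO library 2, 4 or 5 Ccn2 did not pass, with an adjusted P of 0.0518 to 0.0567 in the same test. Its exons overlap Gm15270 on the opposite strand. Id2, a helix-loop-helix inhibitor, had a log2 fold change of -0.27 with KO libraries below control libraries and an adjusted P of 0.122 (edgeR with Benjamini-Hochberg adjustment). Sp5 and T, which respond to β-catenin in embryos, had no count.

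All 16 nuclear cofactors were tested and 2 fell. Both are SOX factors that are also in the list of endothelial markers. Sox7 had control values of 2.52, 2.55, 2.96, 3.43 and 2.75 CPM and KO values of 0.992, 1.23, 1.44, 1.15 and 1.12 CPM, and Sox17 had control values of 1.21, 1.35, 1.46, 0.774 and 0.930 CPM and KO values of 0.645, 0.307, 0.698, 0.321 and 0.254 CPM. KO libraries lay below control libraries for both, with log2 fold changes of -1.25 (adjusted P = 0.000562) and -1.35 (adjusted P = 0.0322) in edgeR with Benjamini-Hochberg adjustment. Sox17 rests on 5 to 36 counts per library and did not pass without control library 1, 2, 3 or 5 or KO library 2, 4 or 5 (adjusted P of 0.0508 to 0.105). The endothelial sum moved the same way, and its part in these values was not tested. None of the 19 tested of 20 cytoplasmic transducers passed in edgeR, DESeq2 or limma voom, with 0 at an unadjusted P under 0.05 in edgeR. The lowest P values there were those of Dvl2, a dishevelled, at a log2 fold change of -0.19 (-0.104 without control library 1), and Btrc, which marks β-catenin for degradation, at 0.11 (0.0720 without control library 2). None of the 10 tested of 11 planar cell polarity genes passed with any of these tools, again with 0 at an unadjusted P under 0.05 in edgeR, and the lowest P values were those of Prickle2 (-0.26) and Vangl1 (-0.11). Exons of Sox17, Adgra2, Dvl2, Btrc and Vangl1 overlap those of other genes on the opposite strand.

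Markers of other cells of the stromal vascular fraction were summed in the same way. Over all genes tested, 1.86% fell in edgeR and 7.46% were lower at an unadjusted P under 0.05. KO libraries lay wholly below control for 2.66%. Progenitor and fibroblast markers, led by Col1a1, summed to 3049 ± 206 CPM in control and 2623 ± 183 CPM in KO adipocytes, and the groups overlapped (log2 ratio -0.22, exact permutation test, P = 0.0159, adjusted 0.0582). Of these 9 genes, 8 had a negative log2 fold change (median -0.31) and 3 fell in edgeR, with log2 fold changes of -0.91 for Cd34, -0.31 for Pdgfra and -0.38 for Col1a1, and exons of Cd34 and Pdgfra overlap those of other genes. Pericyte and smooth muscle markers, led by Pdgfrb, summed to 212 ± 23.5 and 185 ± 21.7 CPM (exact permutation test, P = 0.103), and 0 of 8 tested passed in edgeR, DESeq2 or limma voom, with 5 at an unadjusted P under 0.05 in edgeR. All 8 had a negative log2 fold change (median -0.38), and for 2 the KO libraries lay wholly below control. Macrophage markers, led by Lyz2, summed to 1432 ± 279 and 1464 ± 342 CPM (exact permutation test, P = 0.905). Lymphatic endothelial markers, led by Pdpn, summed to 70.4 ± 7.50 and 66.6 ± 9.03 CPM (exact permutation test, P = 0.476), and Flt4 alone of the 4 fell, with a log2 fold change of -1.07. Mesothelial markers, led by Krt19, stood at 26.3 ± 2.92 and 25.7 ± 7.07 CPM, and Schwann cell markers, led by S100b, at 26.6 ± 1.75 and 28.6 ± 3.31 CPM. Muscle markers, with Pax7 at 0, stood at 3.77 ± 0.667 and 3.54 ± 0.767 CPM. Epithelial markers summed to at most 0.517 CPM in a library. The part of these cells in the levels of the Wnt genes was not tested.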

How the data were processed

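The authors prepared SMARTer and Nextera XT libraries, used STAR and GRCm38.p6 (mm10 in the labels) for mapping the read pairs, counted fragments per gene with featureCounts on an Ensembl annotation and deposited raw counts, neither normalized nor pooled. The strand setting is not given in the sources used here. From these counts, edgeR 4.0.16 (R 4.3.3) filtered genes (filterByExpr, minimum count 10), scaled by TMM, and tested KO against control by the quasi-likelihood test with Benjamini-Hochberg adjustment over 14270 genes at a limit of 0.05. Intervals are 95%. Replicate libraries differed by more than sampling noise (lowest chi-square over degrees of freedom, 3.52), and the biological coefficient of variation was 9.35%. Levels per kb use GENCODE M21 exon lengths. Of the 56748 gene IDs, 52073 have a position there, as do all 59 members, and 0 columns belonged to other samples. Marker sums were compared by 2-sided exact permutation tests. The result of 1 of the 11 marker lists is not reported, and the adjustment over the lists includes it. Intervals cover the spread between libraries as edgeR models it, and floors cover counting error only. The study named DESeq2 in its methods and 4 samples per group in a figure legend; the table holds 5 per group, and all were used here.

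Members and lists were chosen with earlier results of these data known. Values in each library are given for members with an unadjusted P under 0.05 or without overlap and for the highest member per kb of each role, and also for Lrp5, added after its values were seen. For other lists, genes past the limit or the 2 lowest P values are named. Any other gene named was picked once its value was known. Alternatives were other scalings and filters, DESeq2 1.42.0, limma 3.58.1 voom with quality weights, a replicate block, each library left out, and control 4 and KO 1 left out together. Scripts were tested on simulated data.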

Additional observations from a re-analysis of the deposited data

Results flagged for a closer look

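In each group of 5 libraries, the highest or lowest value was compared with its nearest neighbor relative to the range of the group (Dixon's ratio, critical value 0.71). Chance marks about 1 in 20 groups, or 4.1 of the 82 groups examined here, and 4 were found. Lrp5 was 107.7 CPM in control library 4, where the other control libraries lay between 83.4 and 87.5 CPM, and 107.8 CPM in KO library 1, where the other KO libraries lay between 77.6 and 86.1 CPM. These 2 libraries also stood apart on the first principal component. The sum of pericyte and smooth muscle markers was 146.6 CPM in KO library 3, against 190.2 to 199 CPM in the other KO libraries. The sum of muscle markers was 4.93 CPM in control library 4, against 3.34 to 3.72 CPM in the other control libraries.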

How the results depend on the processing

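Over 19 alternatives, the 31 Wnt genes gave 588 values, of which 547 kept the direction and the side of the limit, 35 changed sign and 6 newly passed. The 6 were 5 of Lgr6 and 1 of Fzd1, and 17 genes never changed sign. The number of lower Wnt genes was 1 without a filter on low counts, with DESeq2, with limma voom and without control library 4 and KO library 1, and 0 to 2 with 1 library left out. The number of higher Wnt genes was 0 throughout. Log2 fold changes that changed sign were small. On total counts alone, Axin1 was at -0.0122 and Lgr4 at -0.00403. With limma voom, Fzd3 was at 0.0425 and Lrp6 at 0.00624. Without control library 4 and KO library 1, Axin2 was at 0.00578, Fzd3 at 0.0665, Lrp6 at 0.0334 and Tcf7l2 at 0.0167, and the macrophage sum turned to a log2 ratio of -0.0747. The progenitor and fibroblast sum had a log2 ratio of -0.251 there, with an unadjusted exact permutation P of 0.0571. With 1 library, or control 4 and KO 1 together, left out, the ranges were -0.00717 to 0.0259 for Axin1, -0.133 to 0.0196 for Axin2, -0.0974 to 0.184 for Dkk3, -0.0502 to 0.0708 for Fzd3, -0.00439 to 0.0770 for Fzd7, -0.0696 to 0.0291 for Fzd8, -0.0176 to 0.0781 for Lgr4, -0.140 to 0.0282 for Lrp5, -0.0888 to 0.0461 for Lrp6, -0.258 to 0.0309 for Rspo3, -0.107 to 0.235 for Sfrp1, -0.105 to 0.0167 for Tcf7l2, -0.0365 to 0.142 for Wnt16 and -0.103 to 0.0126 for Wnt9a. Values that kept their sign but moved by over 1.5 times ran from -0.0278 to -0.0104 for Ctnnb1, -0.577 to -0.0458 for Dkk2, -0.108 to -0.0101 for Fzd4, -0.121 to -0.00991 for Fzd5, 0.0192 to 0.158 for Nkd2, -0.456 to -0.205 for Sfrp2, 0.0576 to 0.271 for Wnt11, -0.122 to -0.00104 for Wnt5a and 0.00239 to 0.0905 for Znrf3. Likewise, Fzd6 ran from -0.537 to -0.248 and Wnt5b from -0.658 to -0.317. Of the other pathway genes, 2 to 4 were lower and 7 to 18 had an unadjusted P under 0.05 with 1 library left out, the latter beside 1393 to 2301 of all genes. Over all genes, 164 to 323 were lower and 19 to 119 higher with 1 library left out, and 353 were lower and 145 higher without control library 4 and KO library 1. DESeq2 called 125 higher and limma voom 111. Apart from the libraries left out, the cause of these changes was not tested. Other scalings moved the median of all genes by at most 0.02 in size. The replicate numbers share only a number. Correlations of same-numbered libraries ran from -0.251 to 0.263, and 1 of 5 KO libraries correlated best with its own number. With a replicate block, 21 of all genes were higher, 0 of the other pathway genes were higher (Tpbg at an adjusted P of 0.051, edgeR with Benjamini-Hochberg adjustment), Ccn2 had an adjusted P of 0.0656, and the calls for Fam20c, Reck, Sox7 and Sox17 were kept. Genes of few counts, such as Wnt5b, Dkk2 and Sox17, carry the largest counting error.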

Other observations

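Around Tpbg, the modulator gene that rose, 29 genes were tested within 3 Mb on either side on chromosome 9, a window chosen after its value was seen. None of them passed as higher in edgeR with Benjamini-Hochberg adjustment and 4 fell, where 1.86% of all genes tested did. The 4 were Hmgn3, Me1 and the noncoding genes 9430037G07Rik and 9330159M07Rik, with log2 fold changes of -0.36, -0.27, -1.09 and -0.65. The antisense gene 9330154J02Rik, whose exons overlap those of Tpbg, had a log2 fold change of 0.67 that did not pass (adjusted P = 0.465, edgeR with Benjamini-Hochberg adjustment). Of the genes with a positive log2 fold change, 5 others had a lower adjusted P in the same test, none of which passed. They were 4933431K14Rik at 0.65 (adjusted P = 0.0708), Zfp949 at 0.49 (adjusted P = 0.0809), Irak1bp1 at 0.19, Bckdhb at 0.08 and Nt5e at 0.63.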
